A study of Mus musculus with 10 samples.

Results

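Tnfrsf1b, Irak2 and Tnfaip2 are 3 genes of the TNF and Toll-like receptor response, and the regions described here are those that the RelA and glucocorticoid receptor (GR) libraries of this study listed around them. The regions were selected by position: every region overlapping chr4:144780000-144900000 (Tnfrsf1b), chr6:113560000-113670000 (Irak2) or chr12:112640000-112720000 (Tnfaip2) on mm9 was taken. The windows themselves were chosen from measured values, since each had to hold 8 or more RelA regions after 3 h of lipopolysaccharide (LPS). The counts at that time are therefore a description. The Tnfrsf1b and Irak2 windows sit at that bound with 8 regions each, and the Tnfaip2 window holds 11. In all, 74 of the 114312 regions of the 9 ChIP libraries lay in the windows, 29 at Tnfrsf1b, 25 at Irak2 and 20 at Tnfaip2, and none of them overlapped a region of the input library.

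The cells were macrophages grown from bone marrow of C57BL/6J mice, with no genetic change named in the labels. RelA was precipitated after LPS for 0, 3 or 8 h with the glucocorticoid dexamethasone (Dex) added 3 h before LPS, after 8 h of LPS with Dex added late, and after 0, 3 or 8 h of LPS without Dex. GR was precipitated after LPS and Dex and after Dex, with no times in the labels and with an added protein cross-linker. Input DNA came from untreated cells. Each condition had 1 library, so no difference below has a replicate check or a test, and no p-value is given. The hour of late Dex, the age and sex of the mice and any pooling of animals are not given in the labels. Region lists hold no expression values, so the cell type was not checked against its markers, and binding in fewer cells and weaker binding per cell cannot be told apart.

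RelA is the p65 subunit of NF-κB. LPS binds Toll-like receptor 4, whose adaptors free NF-κB from its cytoplasmic inhibitors, and NF-κB then enters the nucleus and binds κB elements at promoters and enhancers of inflammatory genes. GR is a ligand-activated transcription factor that binds DNA directly or through other factors and is known for restraining NF-κB targets in macrophages. Tnfrsf1b encodes TNF receptor 2, the receptor without a death domain that recruits TRAF2. Irak2 encodes a kinase-like protein of the complex that Toll-like and interleukin-1 receptors form with MyD88, upstream of TRAF6. Tnfaip2 (also B94 or M-Sec) is a TNF-induced gene whose product resembles an exocyst subunit and is known for its part in the formation of membrane nanotubes. In RefSeq's annotation of GRCm38.p6, the nearest protein-coding genes are Vps13d and Tnfrsf8 around Tnfrsf1b, Vhl and Tatdn2 around Irak2, and Exoc3l4 and Gm266 around Tnfaip2.

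The promoter sequences show which letters precede each gene's start. All 3 genes matched RefSeq's table, which is on GRCm38.p6 and not on the build of the regions, so no region is placed on a promoter, exon or intron here. The 250 bases before each start are given 5′ to 3′ on the gene's strand, from chr4:145246871-145247120 on the minus strand (Tnfrsf1b), chr6:113638217-113638466 on the plus strand (Irak2) and chr12:111442411-111442660 on the plus strand (Tnfaip2). Capitals mark the only match to GGANNTTCC, a looser form of the κB element.
Tnfrsf1b: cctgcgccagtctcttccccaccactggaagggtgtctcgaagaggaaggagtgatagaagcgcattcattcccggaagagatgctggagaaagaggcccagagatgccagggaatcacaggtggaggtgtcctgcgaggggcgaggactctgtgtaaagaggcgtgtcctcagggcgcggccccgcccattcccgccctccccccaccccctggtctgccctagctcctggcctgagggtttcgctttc
Irak2: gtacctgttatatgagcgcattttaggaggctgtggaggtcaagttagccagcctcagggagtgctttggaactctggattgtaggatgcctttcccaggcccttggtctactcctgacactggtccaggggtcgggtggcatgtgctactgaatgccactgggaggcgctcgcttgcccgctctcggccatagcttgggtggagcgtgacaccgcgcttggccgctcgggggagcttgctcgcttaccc
Tnfaip2: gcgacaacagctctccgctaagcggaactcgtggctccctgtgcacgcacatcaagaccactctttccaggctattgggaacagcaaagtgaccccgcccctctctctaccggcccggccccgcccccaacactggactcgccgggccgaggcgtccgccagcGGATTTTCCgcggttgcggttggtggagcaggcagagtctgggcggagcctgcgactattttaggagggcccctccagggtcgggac

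Both strands were searched in these 250 bases. The κB consensus, the glucocorticoid response element, AGAACA (one of its arms) and GGAANTTCC matched none of the 3 promoters. Among all 32851 promoters of that length these motifs occurred in 3.90%, 0.167%, 16.1% and 0.813%. GGANNTTCC, which overlaps GGAANTTCC and was tried after the sequences had been seen, matched once, as GGATTTTCC from 87 to 79 bases before the start of Tnfaip2. It occurred in 3.59% of all promoters. GC content was 62.8%, 60% and 65.6% in the Tnfrsf1b, Irak2 and Tnfaip2 promoters, against a median of 52.4% over the table.

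RelA was listed at all 3 loci with LPS alone, and with Dex at 1 region. None of the windows held a RelA region at 0 h. At 3 h they held 8, 8 and 11 regions in the order Tnfrsf1b, Irak2 and Tnfaip2, and at 8 h 6, 5 and 2. With Dex before LPS the count was 0 at 0, 3 and 8 h in each window. With late Dex it was 1 at Tnfrsf1b, 0 at Irak2 and 0 at Tnfaip2. The lists differ greatly in length outside input regions. LPS alone gave 4972 entries after 3 h and 1878 after 8 h, and late Dex gave 225. Far shorter were the 0 h list without Dex, with 47 entries, and the 3 pretreated lists. Those had 43, 33 and 15 entries for 0, 3 and 8 h of LPS. A count of 0 from lists this short is no result about these loci.

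**Figure D1:**
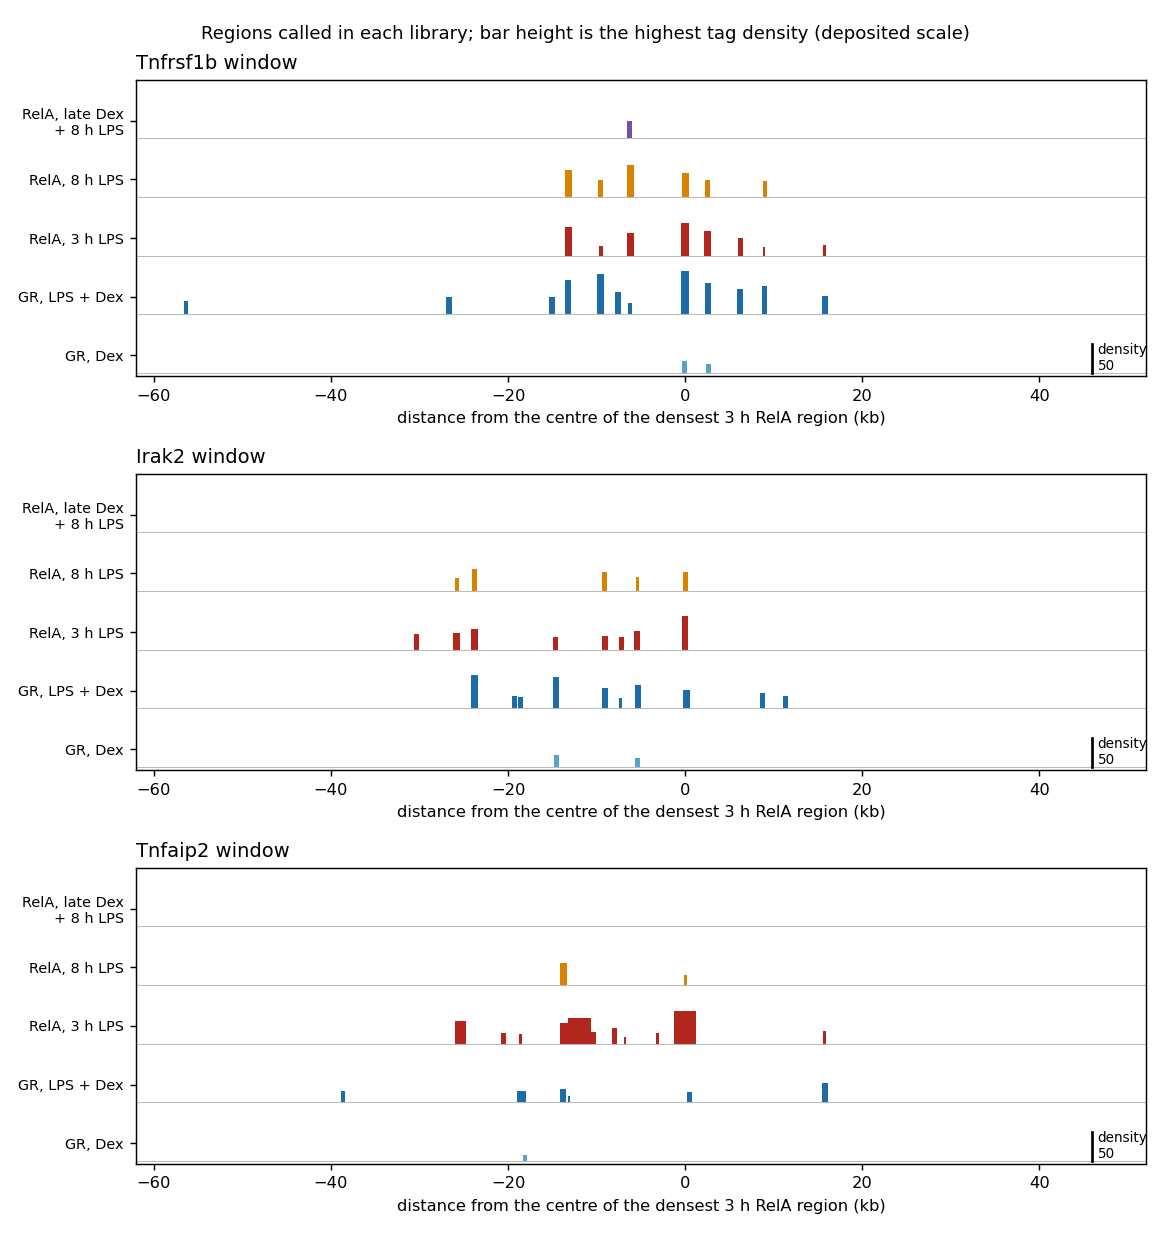
Position of every region in the 3 windows, in kb from the centre of the densest 3 h RelA region, with bar height as the highest tag density on the deposited scale; libraries with no region in any window are not drawn. In the order Tnfrsf1b, Irak2 and Tnfaip2, RelA has 6, 5 and 2 regions at 8 h and 8, 8 and 11 at 3 h. GR has 12, 10 and 6 with LPS and Dex and 2, 2 and 1 with Dex. The whole RelA lists outside input hold 1878 regions at 8 h and 4972 at 3 h. High-density GR regions number 16366 with LPS and Dex and 3733 with Dex over the whole lists.

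The 27 regions of 3 h LPS lay close together, and positions below are mm9 coordinates, as deposited, on the chromosome of the window named. The distance between neighbouring centres had a median of 3686.5 bp at Tnfrsf1b, 4521 bp at Irak2 and 2713.2 bp at Tnfaip2, against 107430 bp over the whole list. That closeness is part of how the windows were chosen. The regions spanned 29442, 30961 and 41943 bp in the same order. Their highest tag density, the authors' measure of reads piled up in a region, ran from 10.7 to 56.5 with a median of 27.3, and the median of the whole 3 h list was 18.5. The best rank by density was 169 of 4972, at Irak2.

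At Tnfrsf1b, the TNF receptor gene, 6 of the 8 RelA regions of 3 h were listed at both times, against 31.3% of the whole 3 h list. The order of their densities differed between the times. The region at 144857262 to 144858108 had a highest tag density of 41.6 at 8 h, against 55.0 at 3 h. The region at 144844115 to 144844916 had 45.6 at 8 h and 49.0 at 3 h, and the region at 144859872 to 144860590 had 28.3 at 8 h and 42.0 at 3 h. These are the 3 densest of the window at 3 h, and each was lower at 8 h on the deposited scale. The other 3 shared regions were higher at 8 h. They had 54.2 at 8 h and 39.3 at 3 h (144851117 to 144851895), 28.7 at 8 h and 16.6 at 3 h (144847994 to 144848410), and 26.9 at 8 h and 15.0 at 3 h (144866442 to 144866743). The region from 144866442 is the least dense of the window at 3 h, so listing at 8 h did not follow the order of the densities at 3 h there. Regions at 144863652 to 144864244 (30.4) and 144873245 to 144873557 (18.6) were listed at 3 h and not at 8 h.

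At Irak2, 5 of the 8 regions were listed again, against 31.3% of the whole 3 h list. The densest, at 113618487 to 113619220, had 32.3 at 8 h, against 56.5 at 3 h. The region at 113594633 to 113595493 had 37.7 at 8 h and 34.6 at 3 h, and that at 113613114 to 113613770 had 23.1 at 8 h and 31.8 at 3 h. The gap between the times was widest at the region from 113618487, and the region from 113594633 was the densest of the window at 8 h. The region at 113609506 to 113610142 had 31.9 at 8 h and 23.2 at 3 h, and that at 113592670 to 113593383 had 22.2 at 8 h and 28.1 at 3 h. Not listed at 8 h were the regions at 113588259 to 113588752 (27.3 at 3 h), 113603914 to 113604537 (22.0) and 113611398 to 113611899 (21.2, the lowest of the window). At 3 h, then, all 8 lay above the median of the whole list.

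At Tnfaip2, 2 of the 11 regions of 3 h were listed at 8 h and 9 were not. Of the whole 3 h list, 31.3% were listed at 8 h, so absence was the usual case. Region widths at 3 h were uneven there, from 251 to 2638 bp with a median of 521 bp, against medians of 655 bp at Tnfrsf1b, 646 bp at Irak2 and 538 bp over the whole list. The densest region, at 112692579 to 112694992, was 2413 bp wide with a density of 54.9 at 3 h. At 8 h a region of 407 bp with a density of 17.6, from 112693615 to 112694022, lay inside it. The only other region listed at 8 h was that at 112679700 to 112680520, with 36.7 at 8 h and 35.6 at 3 h. It is the first of 3 regions separated by gaps of 11 and 7 bp, which together covered 112679700 to 112683773, a stretch of 4073 bp. The second of them, at 112680531 to 112683169, was the widest 3 h region of the windows (2638 bp) and had a density of 44.3, and the third, at 112683176 to 112683773, had 20.1. Neither was listed at 8 h, so the stretch was represented there by a region of 716 bp at its start. Also absent at 8 h was the region at 112667756 to 112669078, with a density of 38.6 and a score of 26.9 at 3 h. The remaining 6 regions had densities between 10.7 (112686855 to 112687106) and 26.9 (112685542 to 112686062). In covered length the window held 1123 bp of RelA regions at 8 h, against 9965 bp at 3 h. At Tnfrsf1b the lengths were 3863 bp at 8 h and 4764 bp at 3 h, and at Irak2 2567 bp and 5215 bp at the same times. The whole lists covered 1043674 bp at 8 h and 2821375 bp at 3 h, so a shorter length at 8 h was not particular to these windows.

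**Figure D2:**
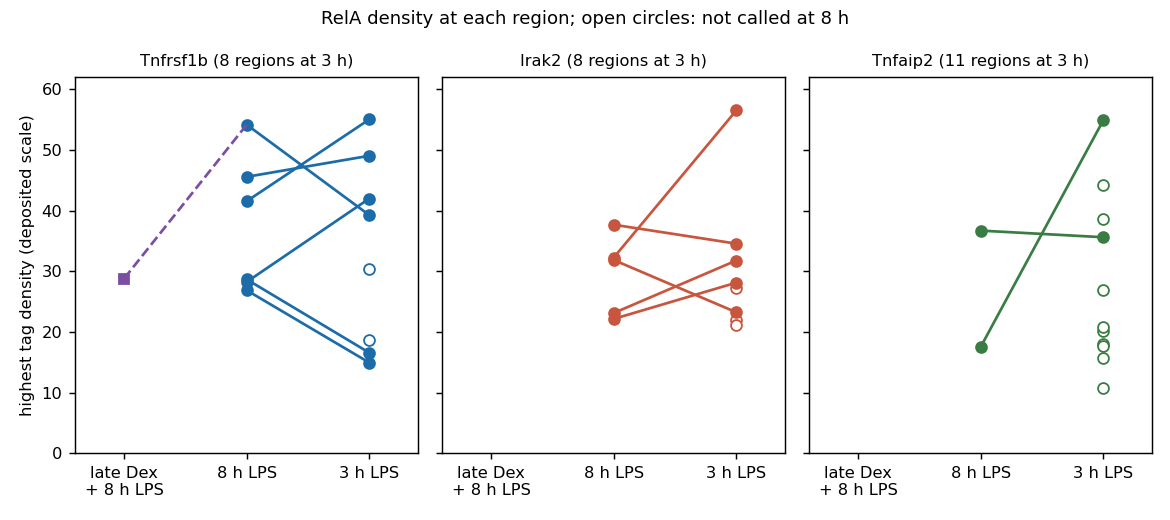
Highest tag density of RelA (deposited scale) at each 3 h region of the 3 windows, joined to its value at 8 h of LPS and, for 1 region, with late Dex; open circles were not called at 8 h. Also called at 8 h were 6 of 8 regions at Tnfrsf1b, 5 of 8 at Irak2 and 2 of 11 at Tnfaip2, against 31.3% of the whole 3 h list. The single late Dex value is 28.8.

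The share of 3 h regions also called at 8 h was 75% at Tnfrsf1b (Wilson 95% interval 40.9 to 92.9), 62.5% at Irak2 (30.6 to 86.3) and 18.2% at Tnfaip2 (5.14 to 47.7), against 31.3% of the whole 3 h list. Over the 3 windows it was 13 of 27, 48.1% (30.7 to 66.0). The intervals cover counting error only. Regions of 1 window are not independent and the windows were chosen on their 3 h regions, so the intervals are no test against the whole list. In the whole list this share differed with the score: 77.1% of the highest quintile by the authors' score were called at 8 h, and 19.8% of the lower quintiles. In the highest quintile, 4 of 4 regions at Tnfrsf1b, 3 of 3 at Irak2 and 2 of 4 at Tnfaip2 were called at 8 h. In the lower quintiles the counts were 2 of 4, 2 of 5 and 0 of 7. With a score of 11 or more required everywhere, 4 of 5, 5 of 8 and 2 of 6 regions were called at 8 h. The 8 h list began at a score of 10.9 and the 3 h list at 8.88, and 5 of the 9 Tnfaip2 regions absent at 8 h scored below 10.9 at 3 h, as did 1 of 2 at Tnfrsf1b and 0 of 3 at Irak2.

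All 13 regions of 8 h were also called at 3 h, where 83.9% of the whole 8 h list were. The windows were chosen for their 3 h regions, which favours such meetings, so this contrast is no result about these loci. Density was higher at 8 h at 6 of the 13, and at 53.0% of all regions called at both times. The median log2 ratio of the densities, 8 h over 3 h, was 0.18 at Tnfrsf1b (6 regions), -0.34 at Irak2 (5) and -0.80 at Tnfaip2 (2), against 0.039 over the 1556 shared regions. The Tnfaip2 value is the midpoint of 0.044 and -1.64 and describes neither region. The ratio of -1.64 sets a region of 407 bp at 8 h against one of 2413 bp at 3 h. How the authors scaled the libraries is not stated, so these ratios hold on the deposited scale only.

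The single RelA region with late Dex was the densest of the Tnfrsf1b window at 8 h without Dex. At 144851150 to 144851693 its density was 28.8 with late Dex, against 54.2 in 8 h LPS without Dex, and its score was 16.4 against 32.6. It ranked 58 of 225 by density with late Dex and 151 of 1878 without Dex. It was 1 of the 13 regions of 8 h (7.69%, interval 1.37 to 33.3), against 10.8% of the whole 8 h list called with late Dex. Regions of 1 window are not independent, so this interval is no test against the list either. With pretreatment, 0 of 27 regions of 3 h were called, and 0.241% of the whole 3 h list were. The count of 0 is thus near the share of the list. Depth per library is not given, and whether depth or recovery shortened the Dex lists was not tested.

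Every GR region in the windows was of high density, and each locus held more of them with LPS and Dex than with Dex, as did the genome. There were 12 with LPS and Dex and 2 with Dex at Tnfrsf1b, 10 and 2 at Irak2, and 6 and 1 at Tnfaip2, in the same order of treatments. All 28 and all 5 had a highest tag density of 10 or more, taken as high density here, as had 31.9% of the whole GR list with LPS and Dex (16366 of 51358 regions) and 6.80% of that with Dex (3733 of 54875). On the deposited scale, high-density regions were thus more numerous with LPS and Dex over the whole lists too, although the Dex list was the longer one. The counts of the windows are therefore not a result about these loci. The high density of all their GR regions is given as a description only. The windows were chosen for RelA regions at 3 h. Of that whole list, 61.0% met high-density GR with LPS and Dex, and 16.3% met high-density GR with Dex. Of the 28 GR regions with LPS and Dex, 9 met no RelA region of 3 h. How far the choice of windows bears on the GR densities was not tested. Density with LPS and Dex ran from 18.9 to 73.4 at Tnfrsf1b, from 17.4 to 55.9 at Irak2 and from 10.2 to 33.2 at Tnfaip2, with medians of 41.1, 29.1 and 18.8. The Tnfaip2 regions thus stood mostly below those of the other loci, with overlapping ranges.

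Each of the 5 regions with Dex met 1 with LPS and Dex, which was denser. Over the whole Dex list, 85.2% of high-density regions (3182 of 3733) met a high-density region with LPS and Dex, so such a meeting was the usual case. At Tnfrsf1b the densities were 73.4 with LPS and Dex and 20.0 with Dex at the region from 144857278 to 144858119, and 54.2 with LPS and Dex and 16.1 with Dex at 144859896 to 144860612. At Irak2 they were 53.6 with LPS and Dex and 20.2 with Dex at 113603959 to 113604647, and 39.4 with LPS and Dex and 15.5 with Dex at 113613164 to 113613915. At Tnfaip2 they were 18.9 with LPS and Dex and 10.7 with Dex at 112674797 to 112675866. The ratios ran from 1.77 to 3.66, or from 0.82 to 1.87 on the log2 scale, with the lowest at Tnfaip2. In the Tnfaip2 pair the centres lay 383 bp apart, against 9.0 to 57.0 bp in the other pairs, so its ratio may compare different peaks. Over all 3177 regions of high density in both lists the median log2 ratio was 1.16, and 85.2% were denser with LPS and Dex, so a higher value there is what most such regions show. A high-density region with Dex was present at 5 of the 28 regions with LPS and Dex (17.9%, interval 7.88 to 35.6), close to the 19.4% of the whole list.

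RelA and GR regions shared positions at 19 of the 27 RelA regions. High-density GR with LPS and Dex met 8 of 8 at Tnfrsf1b, 6 of 8 at Irak2 and 5 of 11 at Tnfaip2, against 61.0% of the whole 3 h list, and over the windows the share was 70.4% (51.5 to 84.2). At Tnfaip2 the count was 2 of 11 when 50% of both regions had to be shared or a GR density of 20 or more was asked for. GR with Dex met 2 of 8, 2 of 8 and 0 of 11 in the same order, against 16.3%. At Tnfaip2 the Dex region at 112675477 to 112675952 lay 162 bp from the nearest RelA region. Of the 13 RelA regions of 8 h, 12 met GR with LPS and Dex, against 85.0% of that list. The RelA libraries compared here had no Dex, so the overlaps join cells treated differently.

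**Figure D3:**
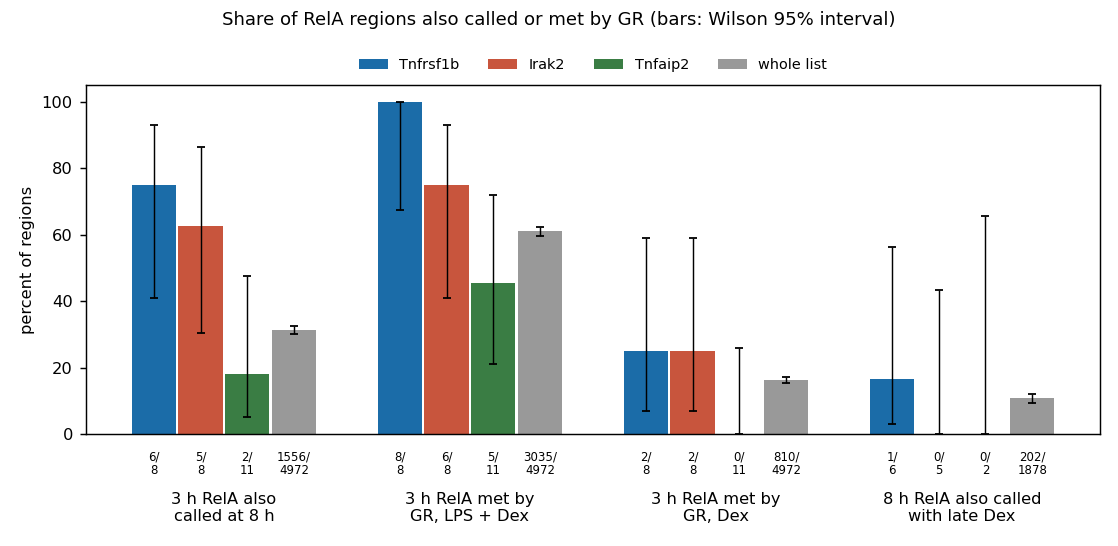
Percent of RelA regions in each window and in the whole list that were also called at 8 h, met by high-density GR of LPS and Dex or of Dex, or called with late Dex; bars are Wilson 95% intervals and the numbers below are regions called of regions counted. The regions also called at 8 h are 6 of 8 at Tnfrsf1b, 5 of 8 at Irak2 and 2 of 11 at Tnfaip2, too few and too close together to be set against the list by their intervals.

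The densest RelA and GR regions coincided at Tnfrsf1b and not at Irak2 or Tnfaip2. At Tnfrsf1b the RelA region from 144847994, with 16.6 at 3 h, met the GR region from 144847747 to 144848515, whose density of 68.2 was the next highest after 73.4. The GR region from 144844162 to 144844791 had 58.2 and met the RelA region of 49.0. The RelA region from 144851117, the densest at 8 h and the one listed with late Dex, met the least dense GR region of the window, at 18.9 (144851251 to 144851682). The densest RelA regions of Irak2 and Tnfaip2 met GR regions of 31.9 (113618571 to 113619353) and 16.6 (112693973 to 112694546). In those windows the densest GR regions, 55.9 (113594679 to 113595423) and 33.2 (112709250 to 112709935), lay at RelA regions of 34.6 and 20.8. At Tnfrsf1b both factors were densest at the same region, with 73.4 for GR and 55.0 for RelA at 3 h. At Tnfaip2 the GR region from 112679673 to 112680387, with 22.3, met the RelA region of 35.6 that was listed at both times. Centres of overlapping RelA and GR regions were 12.0 to 108.5 bp apart at Tnfrsf1b and Irak2. At Tnfaip2 the distance was 72.5 to 1183 bp, the longest where a narrow GR region met the edge of the widest RelA region. The median over the whole list was 52.5 bp.

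**Figure D4:**
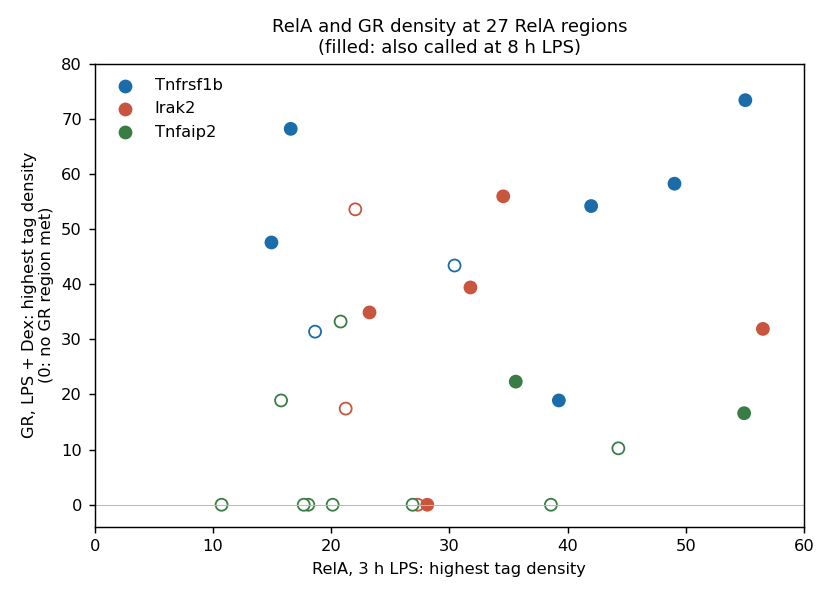
Highest tag density of GR with LPS and Dex (vertical, 0 where no GR region was met) against that of RelA at 3 h of LPS (horizontal) for the 27 RelA regions, by locus; filled points were also called at 8 h. The densest RelA region at Irak2 (56.5) has a GR density of 31.9, and 6 Tnfaip2 regions have no GR region.

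The 8 RelA regions without GR of LPS and Dex were 2 at Irak2, from 113588259 and 113592670, and 6 at Tnfaip2, from 112667756, 112673000, 112683176, 112685542, 112686855 and 112690550. Their densities at 3 h ran from 10.7 to 38.6, with 18.1 at 112673000 to 112673521 and 17.7 at 112690550 to 112690823. Of the 8, the region from 113592670 was called at 8 h and the others were not. GR of LPS and Dex was present at 12 of 13 RelA regions called again at 8 h (92.3%) and at 7 of 14 not called again (50.0%). Over the whole list it was present at 88.1% and 48.7% in the same order, so the windows follow the list in this. Conversely, 19 of the 28 GR regions with LPS and Dex met RelA at 3 h, 67.9% (49.3 to 82.1), against 18.7% of all high-density GR regions of that list. This contrast is built in, since the windows were chosen for their RelA regions. The 9 GR regions without RelA had densities of 18.8 to 38.9, the highest at 144849780 to 144850467 at Tnfrsf1b, and 4 lay in that window, 4 at Irak2 and 1 at Tnfaip2.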

How the data were processed

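The build (mm9) and CASAVA come per the submitters' processing notes. What called the regions, at what threshold, any use of input and the scaling between libraries are not given in the sources used here. The authors deposited 1 list of enriched regions per library. Per the file headers each region has a highest and a mean tag density (signal) and a score (the authors' z-score, relative to what is not stated). The deposited p-value was not used. Some deposited list names hold times other than those of the labels, and the labels set the groups. The members and lists were chosen with earlier results of these data known.

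Sharing 1 bp made an overlap, and regions meeting input were left out of overlaps. GR was counted as high density from a highest tag density of 10, a bound from an earlier account of these data. Among several partners the densest was used. Shares have Wilson 95% intervals, computed under Python 3.11.15 with pandas 2.3.3 and numpy 2.4.6. Depth per library is unknown. The overlap code was tested on simulated data. The naming rule took, in each window, RelA regions listed outside 3 h LPS, the 3 densest and the least dense at 3 h, those met by no GR region of LPS and Dex, and the 3 densest per GR list. Other regions given by position, at Tnfrsf1b, Irak2 and Tnfaip2, were chosen after their values were seen.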

Additional observations from a re-analysis of the deposited data

How the results depend on the processing

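No paired analysis was possible because each condition had 1 library, and no replicate could be left out. Of 99 recomputed values for 18 results, 80 stayed within 1.5 times the value reported, or within 0.1 for log2 ratios. The 80 include values that could not change, as given below, so their number is no measure of stability. The late Dex counts were 1, 0 and 0 under every alternative run, but the counts of 0 could not rise under any of them. Where all lists were limited to scores from 11 upwards, the 3 h count was 5 at Tnfrsf1b and 6 at Tnfaip2, and GR met 4 and 2 of these. With the higher-scoring 50% of each list, the 3 h count was 5 and 4 there and GR met 4 and 1; the 8 h count was 2 at Irak2 and 1 at Tnfaip2, and 3, 2 and 1 regions were called at both times at Tnfrsf1b, Irak2 and Tnfaip2. Both alternatives leave fewer regions by construction. At Tnfaip2, requiring 50% of both regions left 1 region called at both times and 2 met by GR, centres within 250 bp left 3 met by GR, and a GR density of at least 20 left 2. With the mean tag density the median log2 ratio of 8 h over 3 h was -0.21 at Irak2 and -0.66 at Tnfaip2. Keeping input-overlapping regions and widening the windows by 20000 bp on each side could not change any count. No region of the windows overlapped input, and the RelA lists held no region in the added stretches. Merging regions within 500 bp moved no count by over 1.5 times. Unknown depth limits what a missing region can show.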

Other observations

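Within 20000 bp outside the windows, the RelA lists held 0 regions. Neighbouring centres of the whole 3 h list were a median of 107430 bp apart, so an absence over this distance is not a result about these loci. GR with LPS and Dex was listed once, at chr6:113553524-113553822 beside the Irak2 window, with a density of 4.01, and GR with Dex once, at chr12:112627990-112628241 beside the Tnfaip2 window, with a density of 1.79. Both lie below the lowest density of a GR region in the windows, which was 10.2 with LPS and Dex and 10.7 with Dex.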
